A study of Mus musculus with 15 samples.

Results

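Dbp, Tef, Hlf and Nfil3 code for transcription factors of the basic leucine zipper (bZIP) class that carry the daily rhythm of the circadian clock to other genes. They are 4 of the 19938 genes measured here in the right hippocampus of mouse pups. Dbp was chosen by its measured values on these arrays, which were higher with morphine than with saline and higher under severe than under mild stress. Tef, Hlf and Nfil3 were added as its relatives and not for their values. All differences of Dbp are therefore given as a description without a test, and tests are given for the other 3 genes. Each gene is read by 1 probe set that carries no other gene symbol.

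The arrays came from male C57BL/6 pups at postnatal day 9 in 5 groups of 3. SSM pups had severe stress with the opioid morphine and SSS pups severe stress with the saline vehicle. MSM pups had mild stress with morphine and MSS pups mild stress with saline, and CC pups were left untreated. Treatment ran from postnatal day 5 to day 9, where birth is day 1, in litters of at most 7. The labels used here do not state the form of the stress, the morphine dose or the time of day at which tissue was taken. They do not tie pups to litters either, and a p-value below speaks only of the spread among these arrays. All levels are log2 intensities from Affymetrix Mouse Gene 1.0 ST arrays, and all differences are differences of log2 levels with their standard error (SE) from limma.

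DBP, TEF and HLF form the PAR subfamily, named after a stretch rich in proline and acidic residues. They bind short palindromes called D-boxes and raise transcription there, while NFIL3, also called E4BP4, binds the same sites and lowers it. The clock activators CLOCK and BMAL1 (gene Arntl) drive Dbp through E-boxes, so that Dbp is among the transcripts with the strongest daily swing in mouse tissues, and Nfil3 is held down by the REV-ERB receptors (genes Nr1d1 and Nr1d2). In the mouse brain the PAR factors control Pdxk, the kinase that makes the active form of vitamin B6, and mice that lack all PAR factors have seizures.

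The windows before the transcript starts were searched for the letters of the sites through which the clock is known to act on this family. Each RefSeq window (build GRCm38.p6) holds 250 bases before and 50 bases after a start. The motifs were the E-box CACGTG, the D-box TTANGTAA, the ROR and REV-ERB element TAGGTCA and the cyclic AMP element TGACGTCA, each on both strands. They do not overlap in these windows. Dbp and Tef are shown as the pair with the highest correlation of levels, and Nfil3 as their opponent at D-boxes. Capitals mark a motif match.
Dbp, chr7:45704997-45705296, plus strand: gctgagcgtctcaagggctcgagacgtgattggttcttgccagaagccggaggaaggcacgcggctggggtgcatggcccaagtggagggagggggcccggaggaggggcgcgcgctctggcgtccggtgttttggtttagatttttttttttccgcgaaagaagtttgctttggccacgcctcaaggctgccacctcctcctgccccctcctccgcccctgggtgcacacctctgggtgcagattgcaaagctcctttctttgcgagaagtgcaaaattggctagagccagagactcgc
Tef, first start, chr15:81802423-81802722, plus strand: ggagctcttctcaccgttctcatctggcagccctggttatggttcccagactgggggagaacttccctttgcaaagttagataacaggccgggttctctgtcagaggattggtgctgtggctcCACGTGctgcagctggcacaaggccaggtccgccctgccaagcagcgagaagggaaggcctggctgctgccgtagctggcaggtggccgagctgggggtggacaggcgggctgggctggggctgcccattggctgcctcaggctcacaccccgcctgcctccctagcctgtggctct
Tef, second start, chr15:81811164-81811463, plus strand: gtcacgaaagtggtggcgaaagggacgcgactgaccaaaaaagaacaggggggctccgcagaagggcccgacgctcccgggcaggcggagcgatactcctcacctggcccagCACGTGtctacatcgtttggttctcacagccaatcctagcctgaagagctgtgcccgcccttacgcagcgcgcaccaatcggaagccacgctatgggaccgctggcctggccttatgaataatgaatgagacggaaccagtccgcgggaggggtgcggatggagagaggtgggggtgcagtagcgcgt
Nfil3, chr13:52980990-52981289, minus strand: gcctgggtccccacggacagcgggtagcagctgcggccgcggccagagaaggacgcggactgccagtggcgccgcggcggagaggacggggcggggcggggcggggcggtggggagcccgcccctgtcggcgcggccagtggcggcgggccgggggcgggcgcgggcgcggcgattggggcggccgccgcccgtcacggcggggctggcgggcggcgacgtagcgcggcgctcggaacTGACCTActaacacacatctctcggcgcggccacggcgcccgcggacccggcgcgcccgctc
Both Tef windows held an E-box, 127 bases before the first start and 138 bases before the second. An E-box stood in 7.15% of all 32851 windows. The Nfil3 window held the ROR and REV-ERB element in reverse orientation, 12 bases before the start, as did 2.61% of all windows. The Hlf window (chr11:90390868-90391167, minus strand) held the cyclic AMP element 9 bases before its start, as did 1.79% of all windows. No motif was found in the Dbp window, and no D-box, present in 2.32% of all windows, in any of the 5. The windows of Dbp and Nfil3 surround a start inside the RefSeq bounds of the gene. Dbp begins at position 45705100, and Nfil3, on the minus strand, reaches to 52982878. The outermost starts of these genes were therefore not the ones used. All matches are of letters and not shown to be bound.

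A few facts about the arrays bear on every gene below. Pairwise correlations across genes were 0.990 to 0.998. The genes of SSM replicate 3 lay higher than usual by a median of 0.15, and array medians differed by up to 0.194. Markers of tissue that borders the hippocampus differed within groups, and their part in the results was not tested except where a value below bears on it. The 7 measured striatum markers averaged 9.38 in SSM replicate 1, 8.28 in CC replicate 1 and 7.80 in MSM replicate 2, against 6.62 to 7.18 elsewhere. Thalamus markers averaged 8.27 in MSM replicate 3, against at most 7.17 elsewhere. Myelin markers were highest in SSM replicate 1 (7.80) and MSM replicate 3 (7.55), and the 10 hippocampal glutamatergic markers were lowest there, at 8.83 and 8.33 against 9.08 to 9.37 in the other arrays. Choroid plexus markers were low in MSS replicates 1 and 2 (5.55 and 5.54) and SSS replicate 2 (5.49), against 6.49 to 7.41 elsewhere. The titles also carry an SS number of unstated meaning. It is 12 for CC, 11 for both mild-stress groups, 8, 9 and 9 in SSM and 10, 10 and 8 in SSS.

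Dbp stood highest with morphine under severe stress and lowest with saline under mild stress. Its level was 8.78, 8.46 and 8.41 in SSM, against 8.08, 8.01 and 8.08 in SSS. Every SSM array lay above every SSS array, with SSM replicate 1 set apart at the top. The difference was 0.49 (SE 0.091), a 1.41-fold higher intensity. Under mild stress Dbp was 8.19, 8.12 and 7.94 in MSM, against 7.74, 7.80 and 7.87 in MSS. Again the groups did not overlap, with MSM replicate 3 the lowest of its group and nearest to MSS. That difference was 0.28 (SE 0.091), or 1.22-fold. In CC the levels were 8.06, 8.16 and 7.98, which overlap both MSM and SSS. Because the arrays measure whole tissue, fewer cells of a type and less RNA per cell cannot be told apart.

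**Figure D1:**
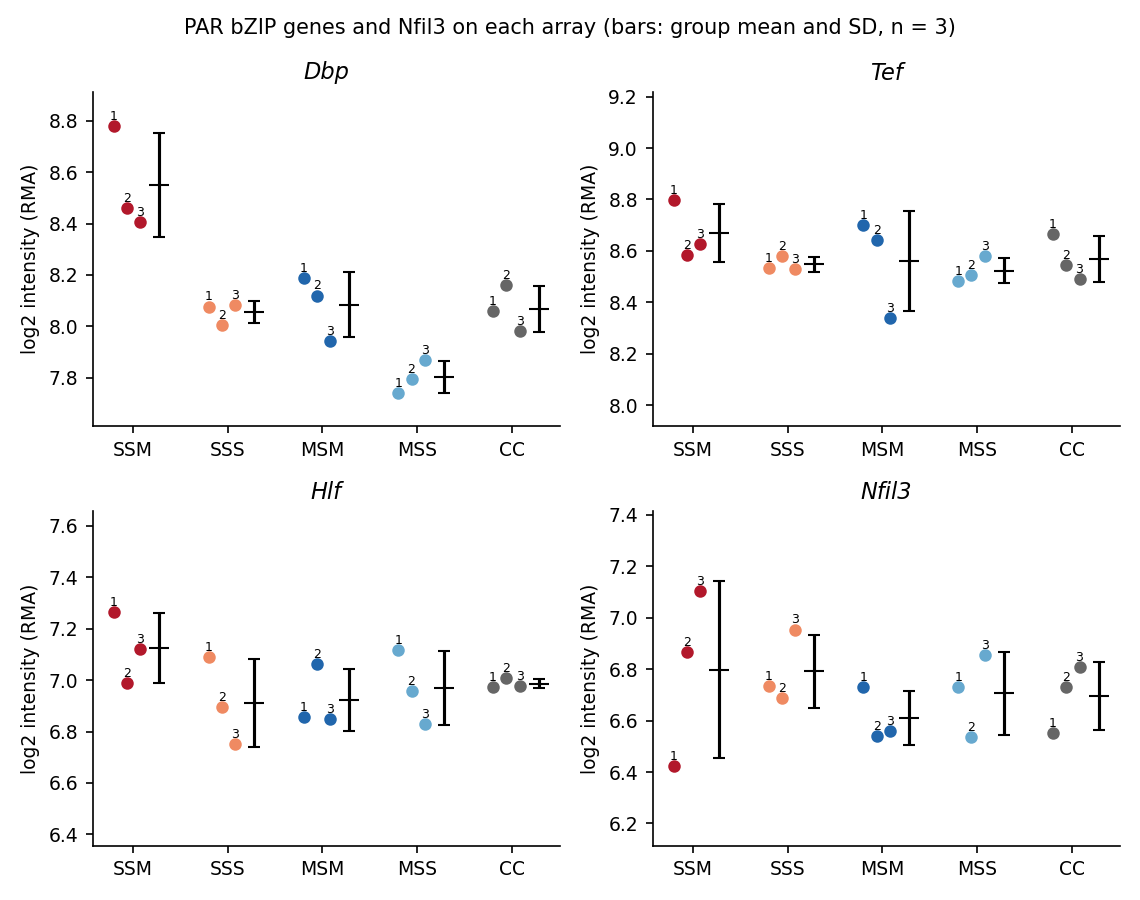
Log2 intensity (RMA) of Dbp, Tef, Hlf and Nfil3 on each array, by group; points are arrays with their replicate number and bars show the group mean and SD (n = 3). In Dbp the SSM arrays (8.41 to 8.78) lie above all others and the MSS arrays (7.74 to 7.87) below all others, while the groups of Hlf and Nfil3 overlap throughout.

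Averaged over both stress levels, Dbp was 0.39 higher with morphine (SE 0.065), or 1.31-fold. Of all genes, 11.7% did not overlap with SSM the higher and 3.87% with MSM the higher, and 0.692% did both, as Dbp did. By size Dbp was the 115th highest of 19938 in this average, the 81st in SSM minus SSS and the 291st in MSM minus MSS. Among all genes the median difference was 0.056 for SSM minus SSS, 0.00012 for MSM minus MSS and 0.027 for the average. The difference under severe stress exceeded that under mild stress by 0.21 (SE 0.13). Without SSM replicate 1 this excess was 0.096. Without SSM replicate 1 and MSM replicate 3 together it was 0.026.

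The part of neighbouring tissue in the Dbp difference was not tested as such, and the levels on the arrays concerned were as follows. SSM replicate 1, with the highest striatum markers, had the highest Dbp level of all arrays. CC replicate 1, second in striatum markers, had a Dbp level of 8.06, between those of the other CC arrays. MSM replicate 3, with the highest thalamus markers, had the lowest Dbp level of its group. MSS replicates 1 and 2, low in choroid plexus markers, had the lowest Dbp levels of all arrays (7.74 and 7.80). SSS replicate 2, also low in these markers, had the lowest Dbp level of SSS (8.01). Without SSM replicate 1 and MSM replicate 3 the averaged difference was 0.365. Without the 3 arrays low in choroid plexus markers, all of them saline arrays, it was 0.343. That last fit left replicate 3 as the only array of MSS. The mild-stress comparison lies within a single SS number. For severe stress only SS number 8 holds both groups, with Dbp at 8.78 in SSM replicate 1 and 8.08 in SSS replicate 3, a difference of 0.698 between 2 arrays.

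Severity went with higher Dbp at both treatments. SSM exceeded MSM by 0.46 (SE 0.091) and SSS exceeded MSS by 0.25 (SE 0.091), and neither pair of groups overlapped. The average over both was 0.36 (SE 0.065), the 24th highest of all genes. In both pairs 1.55% of genes lay higher without overlap and 0.632% lower. Once SSM replicate 1 and MSM replicate 3 were left out, SSM minus MSM was 0.279. The SS number was 11 throughout mild stress and 8 to 10 throughout severe stress, and the stress level and the SS number cannot be told apart.

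Set against untreated pups, the groups stood on either side. SSM was 0.48 higher than CC (SE 0.091) and did not overlap with it, as in 10.4% of all genes. MSS was 0.27 below CC, a difference of -0.27 (SE 0.091), again without overlap, as in 5.09% of all genes. The other two treated groups lay close to CC, at a difference of -0.012 for SSS and 0.017 for MSM (SE 0.091 each). In order of level the groups thus ran SSM, MSM, CC, SSS and MSS, and the middle 3 overlapped one another and changed order when single arrays were left out. The SD of Dbp over the 15 arrays, 0.270, was at the 97.3rd percentile of all genes, while its mean level was at the 77.8th. That SD includes the group differences by which Dbp was chosen, so its high rank follows in part from the choice. Within groups the pooled SD was 0.119 in Dbp, against 0.111 in Tef, 0.129 in Hlf and 0.197 in Nfil3.

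Tef, the relative most like Dbp, had levels of 8.80, 8.59 and 8.63 in SSM, against 8.53, 8.58 and 8.53 in SSS. All SSM arrays lay above all SSS arrays, by a narrow margin between SSM replicate 2 and SSS replicate 2, and overlapped once each array was centred on its median. The difference was 0.12 (SE 0.087) and did not pass (limma, adjusted p = 0.660), and 11.7% of all genes were likewise higher without overlap. Under mild stress Tef was 8.70, 8.64 and 8.34 in MSM, against 8.48, 8.51 and 8.58 in MSS. MSM replicate 3 was the lowest of all 15 arrays, below every MSS array, and the other two MSM arrays lay above MSS. The difference was 0.036 (SE 0.087, limma adjusted p = 1.00), and 0.147 without MSM replicate 3. CC stood at 8.67, 8.54 and 8.49. Tef averaged over both stress levels was 0.080 higher with morphine (SE 0.061, 95% interval -0.051 to 0.211, limma adjusted p = 0.756). Its groups could not be put in an order, since each overlapped the next.

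Hlf, best known for its part in blood stem cells and for its fusion in a childhood leukaemia, was 7.26, 6.99 and 7.12 in SSM, against 7.09, 6.90 and 6.75 in SSS. These groups overlapped, since SSS replicate 1 lay above SSM replicate 2. The difference of 0.21 (SE 0.098) did not pass (limma, adjusted p = 0.528). Its 95% interval, which is not adjusted for the number of genes, was 0.004 to 0.421. With mild stress Hlf was 6.86, 7.06 and 6.85 in MSM, against 7.12, 6.96 and 6.83 in MSS, so the ranges covered each other almost wholly. Here the difference was -0.046 (SE 0.098, limma adjusted p = 1.00). The CC arrays lay within a narrow span, at 6.97, 7.01 and 6.98. Over both levels the mean difference was 0.083 (SE 0.069, 95% interval -0.064 to 0.231, limma adjusted p = 0.766). The morphine differences of Hlf at severe and mild stress differed by 0.26 (SE 0.14), which did not pass either (limma, adjusted p = 0.959).

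Nfil3, the repressor of D-box genes, spread most within SSM, at 6.42, 6.87 and 7.10, against 6.74, 6.69 and 6.95 in SSS. SSM held both the lowest array of all 15, replicate 1, and the highest, replicate 3, whose genes lay higher in general. The group means were almost equal, with a difference of 0.0066 (SE 0.14, limma adjusted p = 0.992). With mild stress Nfil3 was 6.73, 6.54 and 6.56 in MSM, against 6.73, 6.54 and 6.86 in MSS. The difference was -0.098 (SE 0.14, limma adjusted p = 1.00), and MSS replicate 3 alone stood above the MSM arrays. CC was at 6.55, 6.73 and 6.81. The averaged difference was -0.046 (SE 0.099, 95% interval -0.257 to 0.166, limma adjusted p = 0.930), and it turned to 0.0482 without SSM replicate 1. Some deposited values repeat to the last digit: Nfil3 at 6.73 in MSM replicate 1, MSS replicate 1 and CC replicate 2, and Tef at 8.58 in SSS replicate 2 and MSS replicate 3.

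An exact two-sided permutation of morphine and saline within each stress level (400 arrangements, smallest possible p 0.005) gave p = 0.25 for Tef, 0.37 for Hlf and 0.74 for Nfil3. Adjusted over these 3 genes the exact p-values were 0.555, 0.555 and 0.74. These p-values do not show that the genes were alike in both treatments: the intervals above leave room for averaged differences up to 0.211 in Tef and 0.231 in Hlf.

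**Figure D2:**
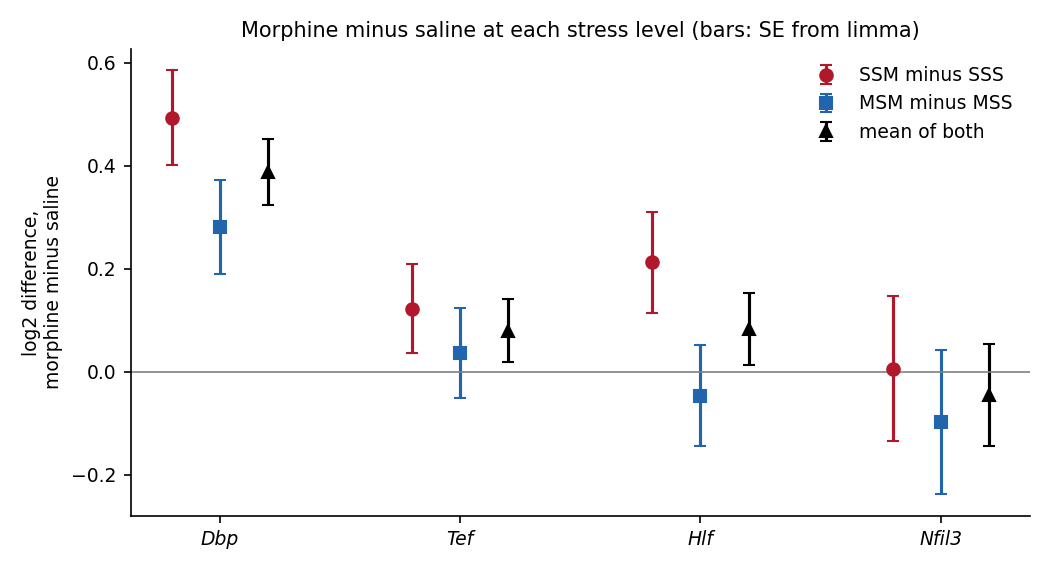
Log2 difference of morphine minus saline under severe stress (SSM minus SSS), under mild stress (MSM minus MSS) and as the mean of both for the 4 genes; bars show the SE from limma. Dbp lies at 0.49 and 0.28, while the averaged differences of Tef, Hlf and Nfil3 (0.080, 0.083 and -0.046) have 95% intervals that include 0.

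No contrast with severity or with CC passed for Tef, Hlf or Nfil3. The averaged severity difference was 0.067 in Tef (SE 0.061, limma adjusted p = 0.691), 0.073 in Hlf (SE 0.069, limma adjusted p = 0.700) and 0.14 in Nfil3 (SE 0.099, limma adjusted p = 0.606). At an adjusted p under 0.05 the share of all genes passing was 0.01% for averaged severity, which is 2 genes (Kbtbd7 and Mir380, named for being the only 2). It was 0% in each of the other 10 contrasts, where 404 to 2858 genes had an unadjusted p under 0.05. The severity count ranged from 1 to 17 with an array left out.

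Activators and repressor share their sites. The balance of their RNA was therefore read as the log2 level of Dbp minus that of Nfil3 on the same array. Only its differences between groups carry meaning, since the probe sets differ. These contain the differences by which Dbp was chosen and are given as a description, and protein was not measured. Dbp minus Nfil3 averaged 1.75 ± 0.55 in SSM and 1.26 ± 0.12 in SSS (SD, n = 3 in each group). It averaged 1.47 ± 0.099 in MSM and 1.10 ± 0.14 in MSS, with 1.37 ± 0.18 in CC. SSM and SSS overlapped, the lowest SSM array being at 1.30 and the highest SSS array at 1.34. Tef minus Nfil3 averaged 1.87 ± 0.45 in SSM and 1.76 ± 0.16 in SSS, and 1.95 ± 0.16 in MSM and 1.82 ± 0.14 in MSS, with 1.87 ± 0.22 in CC. Hlf minus Nfil3 averaged 0.33 ± 0.45 in SSM and 0.12 ± 0.29 in SSS, and 0.31 ± 0.20 in MSM and 0.26 ± 0.25 in MSS, with 0.29 ± 0.13 in CC. In SSM the spread was widest for all 3 ratios, and replicate 1 was highest in Dbp and lowest in Nfil3 of all arrays.

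Across the 15 arrays Dbp and Tef had a Pearson r of 0.687 and a Spearman rho of 0.724, given without a p because Dbp was chosen by these values. Without SSM replicates 1 and 2, the arrays farthest from the median of Dbp, r was 0.536, and without SSM replicate 1 alone it was 0.491. Deviations from the group means gave 0.750, so arrays of a group that were high in Dbp were mostly high in Tef. With each array centred on its median r was 0.575, and after quantile normalization it was 0.553. Both genes were read on the same arrays, so a common shift of an array adds to these values.

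**Figure D3:**
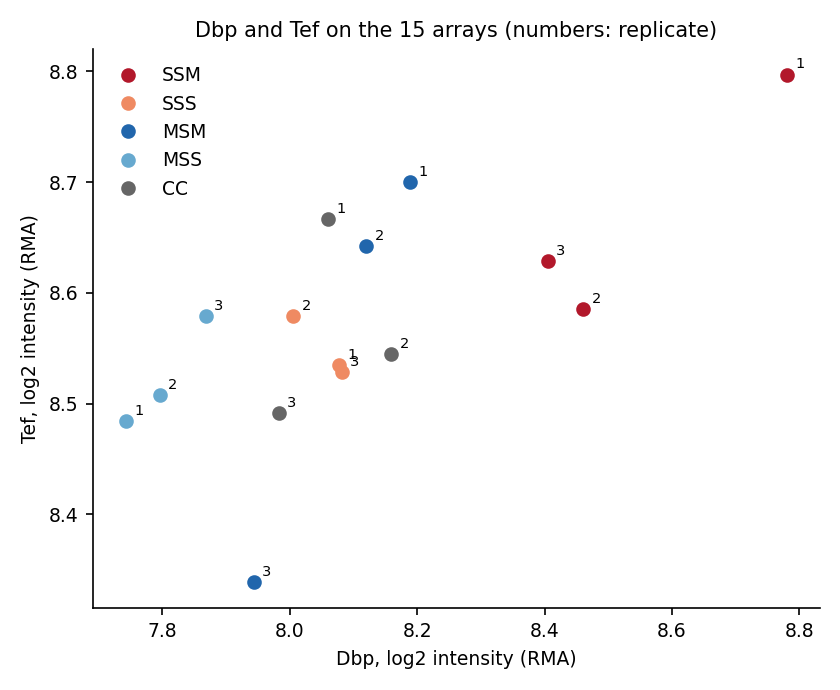
Log2 intensity (RMA) of Tef against Dbp on the 15 arrays, coloured by group and numbered by replicate. SSM replicate 1 is highest in both genes (8.78 in Dbp, 8.80 in Tef), MSM replicate 3 is lowest in Tef (8.34), and r over all arrays is 0.687.

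Dbp and Hlf had r = 0.501, which was 0.178 without SSM replicate 1. For Dbp and Nfil3 r was 0.012 over all arrays and -0.459 for deviations from the group means. None of the pairs without Dbp passed. Tef and Hlf had r = 0.424 (rho 0.256), Tef and Nfil3 r = -0.146 (rho -0.176) and Hlf and Nfil3 r = -0.253 (rho -0.136). Their permutation p-values for r were 0.113, 0.606 and 0.360, or 0.226, 0.727 and 0.540 adjusted over 6 pairs. For rho the permutation p-values were 0.353, 0.529 and 0.626, each 0.626 once adjusted. The 6 pairs include those with Dbp, whose p-values enter the adjustment although Dbp was chosen by its values. Without the 2 arrays farthest from the median of the first gene, r was -0.092, -0.086 and 0.261 in the same order. In Hlf and Nfil3 the deviations gave -0.493. SSM replicate 1 is the highest array in Hlf and the lowest in Nfil3, and the r of this pair was 0.010 without it and -0.253 with it.

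Ranked by r over the 15 arrays, the genes most like Dbp were Pphln1 (r = 0.931), which takes part in gene silencing, Uxt (0.926), a prefoldin-like chaperone, Tmed7 (0.911), a cargo receptor of the secretory pathway, Tcp11l2 (0.908) and Vdac1 (0.904), the main pore of the outer mitochondrial membrane. Their r on deviations from group means ran from 0.540 to 0.721. With each array centred on its median Uxt ranked 1, Tcp11l2 2 and Tmed7 8, but Vdac1 ranked 21 and Pphln1 26. Among the clock repressors and relatives the most like Dbp was the repressor Cry2 (r = 0.764, rank 220 of all genes), ahead of Tef (rank 686) and Nr1d2 (r = 0.680, rank 748). This order did not hold with each array centred on its median, where r was 0.435 for Cry2, 0.575 for Tef and 0.610 for Nr1d2, nor for deviations from group means, where Cry2 had 0.609 and Tef 0.750. For Tef the leading genes were the calcium channel subunit gene Cacna2d3 (0.899), the transcription factor gene Foxp1 (0.897), the cell adhesion gene Igsf11 (0.869), Fbxl14 (0.859) and the semaphorin receptor gene Plxnd1 (0.859). Hlf went with Wdr70 (0.870), the steroid synthesis gene Cyp11a1 (0.868), Sgip1 (0.838), the splicing factor gene Dnajc8 (0.837) and the peroxisomal transporter gene Abcd2 (0.837). Those nearest Nfil3 were Tbc1d13 (0.893), the G protein gene Gnai1 (0.891), the synaptic adhesion gene Lrrtm1 (0.887), Cds1 (0.879) and Letmd1 (0.875). After the same centring Sgip1 ranked 30 for Hlf, and Tbc1d13 16 and Letmd1 20 for Nfil3, while the other genes named for Tef, Hlf and Nfil3 ranked 1 to 9. All of these genes are the tops of a ranking of all genes over few arrays and are given as a description.

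None of the clock genes around Dbp passed. Of 10 clock repressors and E-box outputs, 8 had an averaged morphine difference above 0, a share not far from the 67.3% of all genes above 0. Their median was 0.097 against 0.027 for all genes. This list was chosen with its values known and its direction is no independent evidence. The cryptochrome gene Cry1 differed by 0.32 (SE 0.10), the REV-ERB genes Nr1d2 by 0.16 (SE 0.059) and Nr1d1 by 0.14 (SE 0.056), and the repressor gene Bhlhe41 by 0.16 (SE 0.062), with a limma adjusted p of 0.649 each. The period genes, which the clock activators also drive through E-boxes, were at 0.047 for Per1, -0.017 for Per2 and 0.075 for Per3.

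Array by array, none of these 10 genes was free of overlap in both comparisons. Of all genes only 0.692% were higher without overlap in both, so a list of 10 would rarely hold one. Dbp did so, but it was chosen by these values. Cry1 was 7.02, 6.46 and 6.71 in SSM, against 6.54, 6.49 and 6.44 in SSS, and 6.64, 6.93 and 7.04 in MSM, against 6.26, 6.36 and 6.77 in MSS. In both comparisons its groups overlapped, and its highest levels were in MSM replicate 3 and SSM replicate 1. These are among the arrays with high markers of neighbouring tissue. Of the others high in striatum markers, MSM replicate 2 was at 6.93, and CC replicate 1 belongs to a group with a Cry1 mean of 6.65 (SD 0.11). Nr1d1 was 8.50, 8.59 and 8.42 in SSM, against 8.44, 8.37 and 8.32 in SSS, and 8.36, 8.62 and 8.28 in MSM, against 8.31, 8.19 and 8.31 in MSS. Both comparisons overlapped in Nr1d1 as well, and CC stood at 8.19, 8.23 and 8.23. Bhlhe41 was the single gene of the list with no overlap between SSM and SSS, 1 of 10 where 11.7% of all genes were likewise higher. Under mild stress none of the 10 was free of overlap, where 3.87% of all genes lay higher without overlap and 3.48% lower.

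**Figure D4:**
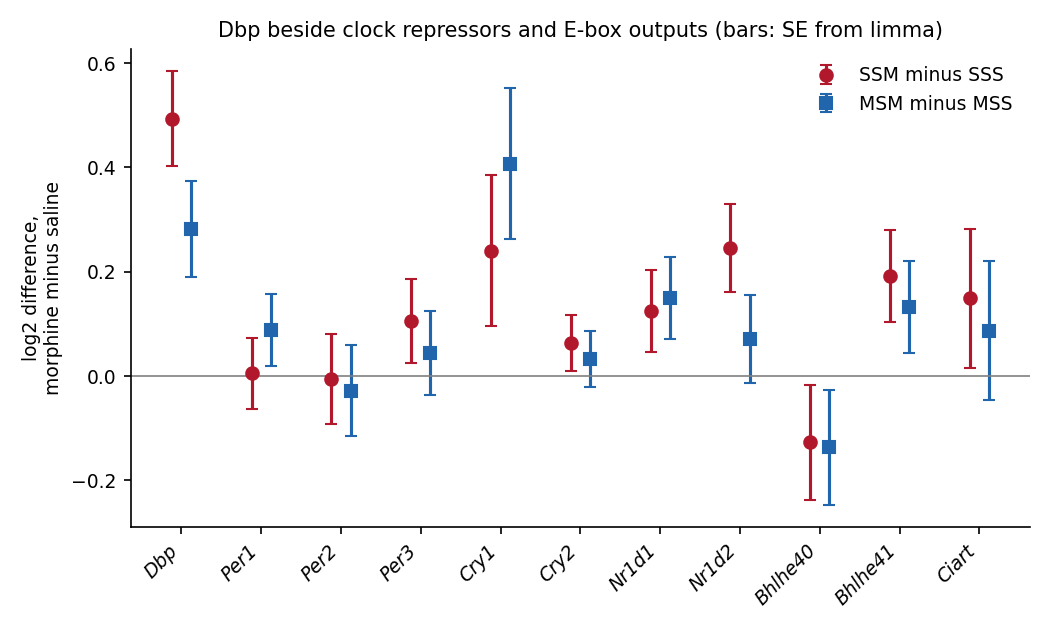
Log2 difference of morphine minus saline for Dbp and 10 clock repressors and E-box outputs under severe stress (SSM minus SSS) and mild stress (MSM minus MSS); bars show the SE from limma. Dbp is highest under severe stress (0.49) and Cry1 under mild stress (0.41, against 0.28 for Dbp), and Per2 and Bhlhe40 lie below 0 in both.

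Of the clock activators 3 of 4 were measured and none passed. Arntl was 0.16 higher in SSM than in SSS and stood at -0.14 for MSM minus MSS, with no overlap in either. Of all genes, 11.7% were higher without overlap in SSM against SSS and 3.48% lower without overlap in MSM against MSS. Arntl averaged 0.0067. Clock (0.020, SE 0.041) and Arntl2 (-0.050, SE 0.056) differed little from 0. Of the ROR receptors, which activate at the elements where REV-ERBs repress, Rora averaged 0.49 (SE 0.26, limma adjusted p = 0.657) and Rorb 0.34 (SE 0.14, limma adjusted p = 0.649). Both were highest in MSM replicate 3, at 8.45 and 7.71, the array with high thalamus markers. Rorb was not high in that array alone, since its MSM mean was 7.34 (SD 0.57), against group means of 6.68 to 6.79 elsewhere. The part of thalamus tissue in these levels was not tested.

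Genes for the turnover of period and cryptochrome proteins had 6 of 8 measured above 0 and a median of 0.027, equal to that of all genes. The largest was Fbxl21, a ubiquitin ligase subunit for cryptochromes, at 0.16 (SE 0.084, limma adjusted p = 0.656). In SSM against SSS Btrc was higher without overlap, as were 11.7% of all genes, and Gsk3b lower without overlap, as were 1.15%. The related C/EBP bZIP factors had 4 of 6 above 0 (median 0.033) and none passed. Cebpa stood at -0.23 for MSM minus MSS without overlap, where 3.48% of all genes lay lower without overlap, and averaged -0.068 (SE 0.068).

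Downstream, known targets of PAR factors did not pass either. Of 9 such genes, most of them known from liver, 6 were measured and 4 lay above 0 (median 0.038). Pdxk, the target known in brain, was 9.43, 9.04 and 9.16 in SSM, against 9.04, 8.90 and 9.05 in SSS, and 8.89, 8.90 and 9.21 in MSM, against 9.03, 8.88 and 9.04 in MSS. Both comparisons overlapped, and the highest array of each morphine group was again SSM replicate 1 and MSM replicate 3. Pdxk averaged 0.12 higher (SE 0.071, limma adjusted p = 0.692). The nuclear receptor gene Nr1i3 was at 0.073 (SE 0.050), the bile acid synthesis gene Cyp7a1 at -0.060 (SE 0.059) and the fatty acid sensor gene Ppara at -0.057 (SE 0.058).

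Glucocorticoids, the adrenal hormones of stress, also set clocks, and their induced genes were read beside Dbp. Of 12 measured, 9 lay above 0 in the average with a median of 0.039, where 67.3% of all genes lay above 0, and none passed. In SSM minus SSS 10 of 12 lay above 0 (median 0.100), where 74.0% of all genes did. In MSM minus MSS only 4 of 12 did (median -0.036), where 50.1% of all genes did. Sgk1, a kinase gene induced by glucocorticoids, averaged 0.15 (SE 0.056, limma adjusted p = 0.649) and was higher without overlap in MSM against MSS, 1 of 12 where 3.87% of all genes did so. Sult1a1 was at 0.11 (SE 0.059), Tsc22d3 at 0.089 (SE 0.054) and Zbtb16 at -0.32 (SE 0.18). In SSM against SSS, Sult1a1, Mt1 and Nfkbia were higher without overlap, 3 of 12 where 11.7% of all genes did so. Markers of neighbouring tissue had larger medians in the averaged morphine contrast than the pathway lists other than the ROR receptors. The median was 0.60 for choroid plexus (10 of 10 above 0), 0.62 for striatum (7 of 7), 0.60 for myelin (9 of 9) and 0.22 for thalamus (7 of 8). It was -0.24 for hippocampal glutamatergic markers (1 of 10 above 0), and 0 markers passed in limma.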

How the data were processed

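Right hippocampi of 15 pups, 3 in each of 5 groups taken from the treatment labels, were read on single-colour arrays. The authors deposited log2 intensities made with RMA, per the submitters' processing notes, which name no version. They were used as deposited. All 15 columns matched a sample and 0 were left unused. Of 35557 probe sets, 23410 were annotated, 21789 with 1 gene symbol and 1621 with several. The brightest single-symbol probe set per gene left 19938 genes.

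A model with 5 group means was fitted to every gene (lmFit and eBayes of limma 3.58.1, R 4.3.3), with 10 residual and 4.61 prior degrees of freedom. Two-sided p-values were adjusted by Benjamini-Hochberg over all genes of a contrast, at a threshold of 0.05. The number of arrays limits the precision. Permutation tests used scipy 1.17.1 in Python 3.11.15, with 100000 resamples for correlations. Promoter windows came from RefSeq.

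The 4 genes and the 15 gene lists (127 members, 114 measured) were chosen with earlier results of these data known. Named were the 4 genes, up to 4 members of each pathway list by smallest p in the averaged morphine contrast, the 5 genes of highest r per family member (predicted genes, clones, receptors of smell and small RNAs passed over) and tissue markers by their mean. Any other named gene, such as the remaining period genes and those without overlap, was chosen after its values were seen. Alternatives were quantile normalization, median centring, arrays left out, only the groups compared, the SS number as random block or fixed term, a filter on dim genes, a trended robust prior, array weights and the mean of all probe sets. Leaving out the 3 arrays low in choroid plexus markers was added after seeing the data.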

Additional observations from a re-analysis of the deposited data

Results flagged for a closer look

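Among the 4 genes, the only ones screened, Dbp was flagged because SSM and MSS lay on opposite sides of CC. SSM minus CC was 0.48, with every SSM array above every CC array, as in 10.4% of all genes. MSS minus CC was -0.27, with every MSS array below every CC array, as in 5.09% of all genes. The share of all genes with both was not counted. The difference between these 2 effects was not tested, both share the CC arrays, and Dbp was chosen by its differences between the treated groups.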

How the results depend on the processing

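Dbp kept its direction under every alternative run for the averaged morphine difference (0.343 to 0.490, and 0.330 to 0.424 with an array left out). Both single comparisons did so too. Dbp was chosen by these differences, and its morphine and saline arrays did not overlap at either stress level. Leaving arrays out could therefore not change its direction. Tef and Hlf kept theirs in the averaged morphine difference, and neither passed under any alternative. SSM minus SSS in Dbp moved to 0.698 with the SS number as a fixed term, where it rests on 2 arrays, and the interaction to 0.416. For Nfil3 the averaged morphine difference turned to 0.0607 without SSM replicate 1 and MSM replicate 3, and ran from -0.122 to 0.0482 with an array left out. With the SS number as a fixed term 19 genes passed in that contrast, 40 in SSM minus SSS and 2 in the interaction, against 0 in each.

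Small differences of the relatives changed sign, and the cause was not tested. Nfil3 in SSM minus SSS became -0.0390 after quantile normalization, -0.0234 after median centring, -0.0461 without the arrays low in choroid plexus markers, -0.0172 with the SS number as a random block (correlation 0.0650) and -0.531 with it as a fixed term, when its interaction became -0.433. Nfil3 in MSS minus CC became -0.0124 after centring and -0.0264 with array weights. Without SSM replicate 1 and MSM replicate 3, Tef became -0.0639 in SSM minus MSM, -0.0201 in averaged severity, -0.0876 in the interaction and 0.103 in MSM minus CC. With array weights the last 2 were -0.0190 and 0.0682. Without the arrays low in choroid plexus markers, MSS rested on replicate 3 alone. Tef then became -0.0187 in MSM minus MSS, -0.0473 in SSS minus MSS and 0.0112 in MSS minus CC. In the same fit Hlf became 0.0918 in MSM minus MSS and 0.0898 in SSS minus MSS, and Nfil3 -0.0108 in SSS minus MSS.

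With an array left out the following ranges crossed 0. In SSM minus SSS Nfil3 ran from -0.146 to 0.194. In MSM minus MSS Tef ran from -0.0333 to 0.147 and Hlf from -0.116 to 0.0275. In SSS minus MSS Hlf ran from -0.146 to 0.0246 and Nfil3 from -0.00033 to 0.159. In SSM minus MSM Tef ran from -0.00053 to 0.180. In the interaction Tef ran from -0.0242 to 0.156 and Nfil3 from -0.0485 to 0.292. Dbp ran from -0.0546 to 0.0337 in SSS minus CC and from -0.0357 to 0.0868 in MSM minus CC. Among the relatives the ranges against CC were -0.0506 to 0.290 for Nfil3 in SSM, -0.0583 to 0.0292 for Tef and -0.163 to 0.00730 for Hlf in SSS, and -0.0773 to 0.103 for Tef in MSM. In MSS they were -0.0820 to 0.00554 for Tef, -0.0910 to 0.0517 for Hlf and -0.0638 to 0.0960 for Nfil3.

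Genes passing for averaged severity, 2 in the fit reported, ranged from 0 without the arrays low in choroid plexus markers to 43 with array weights. No paired analysis was possible because replicate numbers were given in accession order and pair no pups. The SS number, which joins SSM and SSS at 8 and MSM and MSS at 11, was run as a block instead.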
